A study of Mus musculus with 6 samples.

Results

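The cytosolic ribosomal protein genes were examined in the liver of TRIM24C52/55A knockin mice and their WT littermates on a high-fat diet (HFD). The genes were chosen by name alone, as every gene listed under a symbol of the form Rps or Rpl with a number, and under *Rpsa*, *Rplp0*, *Rplp1* and *Rplp2*, and the rule uses no measured value. There were 81 such genes among the 21528 listed in any library, 32 of the small (40S) subunit and 49 of the large (60S) subunit. The RNA came from 3 WT and 3 homozygous TRIM24C52/55A mice of the C57BL/6 strain (C57Bl/6J in the study's methods), 5 months old. All 6 mice, the WT group included, had eaten a diet with 60% fat for 3 months. The knockin was made by CRISPR/Cas9 and replaces a pair of cysteines of TRIM24, a protein with a RING domain and a bromodomain, with alanine in every cell of the animal, not in hepatocytes only. The authors deposited one value per gene and mouse in FPKM, the fragments of a gene scaled by the length of its transcript and by the mapped fragments of the library. Every library came from whole liver tissue, and fewer cells of a type and less RNA per cell cannot be told apart in such samples.

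Each ribosome holds one copy of nearly every ribosomal protein. The small subunit reads the mRNA and the large subunit joins the amino acids, and a stalk of acidic proteins on the large subunit recruits the elongation factors. In the liver, these mRNAs are among the most abundant of the messages that do not encode secreted proteins. Most of them begin with a run of pyrimidines, the 5′ terminal oligopyrimidine (TOP) tract, through which insulin and mTORC1 control how many of them are translated, and LARP1 holds them when mTORC1 is inactive. An FPKM value measures the amount of an mRNA and not its translation.

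Because the TOP tract sits at the first base of the mRNA, the DNA around the annotated start was read for these genes from RefSeq on GRCm38.p6. Sequences from 250 bases before to 50 bases after a start were at hand for 59 of the 81 genes, and 10 of these had more than 1 annotated start. A tract was counted where at least 6 pyrimidines in a row, with a C among them, lay wholly or partly within 20 bases of a start. The strand read was the one with the letters of the mRNA, and a gene counted if any of its starts had a tract. Windows of 30 bases, with 10 bases before the start, are shown for 5 genes that hold a tract and 3 that do not, and the capitals mark the tract.
Rps6, chr4:86857348-86857377, minus strand: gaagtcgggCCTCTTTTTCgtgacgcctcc
Rpl27a, chr7:109519185-109519214, plus strand: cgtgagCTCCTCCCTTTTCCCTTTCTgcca
Rpl35a, chr16:33056472-33056501, plus strand: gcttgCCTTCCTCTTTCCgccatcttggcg
Rplp2, chr7:141447641-141447670, plus strand: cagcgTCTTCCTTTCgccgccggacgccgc
Rpl15, chr14:18270967-18270996, minus strand: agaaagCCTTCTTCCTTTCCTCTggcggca
Rps4x, chrX:102189372-102189401, minus strand: gctgggcggagcaacccaggctccagcgcg
Rpsa, chr9:120127756-120127785, plus strand: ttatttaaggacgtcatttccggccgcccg
Rpl41, chr10:128549149-128549178, minus strand: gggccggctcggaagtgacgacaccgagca
The tract began 1 base before the start in *Rps6*, 4 bases before it in *Rpl27a* and *Rpl15*, and 5 bases before it in *Rpl35a* and *Rplp2*. A window without a tract says only that these letters do not lie near this annotated start.

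Of the 59 genes with a sequence, 43 (72.9%) held a tract, against 46.6% of 9027 other genes tested and 47.4% of all 27025 genes in the table. On the opposite strand the order was turned, with 30.5% of the ribosomal protein genes and 49.1% of the other genes tested. Other short motifs were searched on both strands of the same windows. The letters CCGGAAG, the core bound by ETS factors, lay in 42.4% of the ribosomal protein genes and 20.2% of the other genes tested. A GC box, GGGCGG, lay in 59.3% and 67.2% of them, and TATAAA in 10.2% and 9.31%. The letters AAGATGGCG, a core of YY1 sites, lay in 5.09% and 3.77%. A match is a description of the sequence and not a bound site. The genotype difference was close to 0 with and without the tract, since the median log2 fold change was 0.01 over 42 tested genes with a tract and -0.01 over 15 tested genes without one.

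The chosen genes lie on 19 chromosomes, with 14 on chromosome 7, 7 on chromosome 11 and 4 on the X chromosome. None lies within 10 Mb of *Trim24*, although 2 share chromosome 6 with it. All 81 were found in GENCODE M21 (GRCm38) under the same name and at an overlapping place. The annotation calls 79 of them protein coding. *Rpl6l* is called a processed pseudogene and *Rps4l* a transcribed processed pseudogene, which are copies made from a reverse-transcribed mRNA. For 20 genes the interval in the files was more than 1.5 times the annotated length. For *Rpl13* it spanned 4435 kb against 2.90 kb annotated, and for *Rps4l* 212 kb against 0.943 kb, and whether the FPKM of such genes hold fragments of other transcripts in that interval was not tested. Ribosomal protein genes also have many pseudogenes, whose near-identical sequence the authors' counting could split. Of these, 95 were listed under ribosomal protein names with a pseudogene suffix, and their summed level was between 72.0 and 86.3 FPKM per library.

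Of the 81 genes, 79 had a mean of at least 0.5 FPKM and entered the test, all 32 of the small subunit and 47 of the large. The ribosomal protein mRNAs were abundant and close in level, since 68 of the 79 had a mean of at least 100 FPKM and 75 were among the 1000 highest genes of the liver. The median of their means was 178 FPKM, with an interquartile range from 135 to 228 FPKM. FPKM is a level per length, and genes can be compared only as far as the length used for each is right. Which lengths were used was not checked, and the order of genes below rests on them. The medians were 189 FPKM for the small subunit and 177 FPKM for the large.

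**Figure D1:**
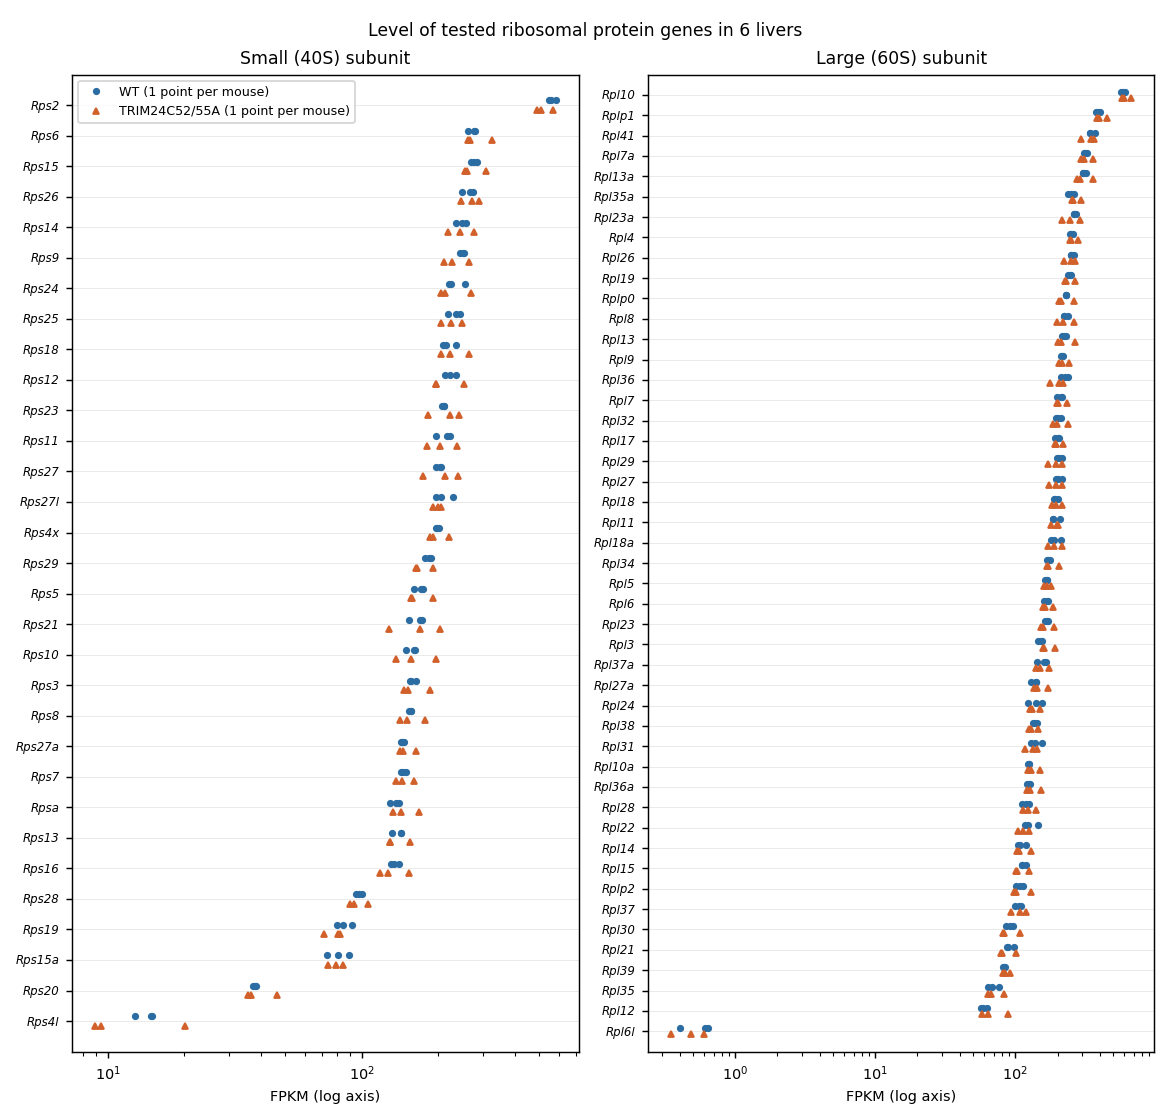
FPKM (log axis) of 78 of the 79 tested ribosomal protein genes, ordered by mean, in 3 WT livers (circles) and 3 TRIM24C52/55A livers (triangles), with 1 point per mouse. The group means run from 37.7 FPKM for Rps20 in WT to 616 FPKM for Rpl10 in TRIM24C52/55A, apart from the pseudogenes Rps4l and Rpl6l. The points of both genotypes overlap for all genes shown but Rpl3.

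*Rpl10*, which completes the large subunit near the peptidyl transferase centre, was the most abundant, at 567, 605 and 587 FPKM in the WT mice and 597, 674 and 578 FPKM in the TRIM24C52/55A mice, given here and below in the order of replicate number. *Rps2*, which lies near the entry of the mRNA channel, was the highest of the small subunit, with 549, 556 and 580.5 FPKM in WT and 492, 565 and 509 FPKM in TRIM24C52/55A. These stood apart from the next in order, *Rplp1*, a stalk protein, at 389 ± 14.02 FPKM (SD, n = 3) in WT and 409 ± 35.0 FPKM in TRIM24C52/55A. In WT, *Rpl41*, a very short peptide of the large subunit, followed at 351 ± 16.7 FPKM, and *Rpl7a* at 316.5 ± 6.83 FPKM.

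At the lower end were *Rpl12* (59.4 ± 2.96 FPKM in WT), a base of the stalk, *Rpl35* (69.7 ± 6.46 FPKM) and *Rps20* (37.7 ± 0.531 FPKM). The pseudogene *Rpl6l* had 0.549 ± 0.127 FPKM in WT, and *Rps4l* had 14.1 ± 1.21 FPKM. The parent-like gene *Rps4x*, on the X chromosome, was at 198 ± 2.10 FPKM. Below the filter, *Rpl3l*, the paralogue of *Rpl3* used in heart and skeletal muscle, had 0.118, 0.120 and 0.123 FPKM in WT, was listed in TRIM24C52/55A only in replicate 3 at 0.0638 FPKM, and was not listed in the other two. *Rpl39l*, a paralogue of *Rpl39* known from male germ cells, was listed only in WT replicate 2, at 0.162 FPKM. *Rps27l*, the paralogue of *Rps27*, was by contrast at the level of its relative, with 210 ± 16.8 FPKM against 202 ± 4.68 FPKM in WT.

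Whether the knockin changed the level of these mRNAs was then asked gene by gene. No ribosomal protein gene passed the test between TRIM24C52/55A and WT livers, with 0 of 79 past an adjusted p-value of 0.05 (limma on log2(FPKM + 1), with Benjamini-Hochberg adjustment over all 12225 genes tested). Over all genes tested, 7.72% passed, 1.64% higher and 6.09% lower in TRIM24C52/55A. At an unadjusted p-value under 0.05 the count was again 0 of 79, where 23.6% of all genes passed. *Rpl36*, of the large subunit, had an adjusted p-value of 0.326 in this limma fit (Benjamini-Hochberg). The log2 fold changes ran from -0.22 for *Rps4l* to 0.21 for *Rpl12*, with 38 positive and 41 negative and a median of -0.0042, beside a median of -0.075 over all genes. The test could have left small changes unseen, and the 95% confidence intervals set the limit. For log2(FPKM + 1) as deposited, they lay within a 1.5-fold change in either direction for 78 of the 79 genes. They lay within a 2-fold change for all 79, and in the median they reached 0.22 to either side of the estimate. This scale understates the change of low genes such as *Rpl6l*.

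**Figure D2:**
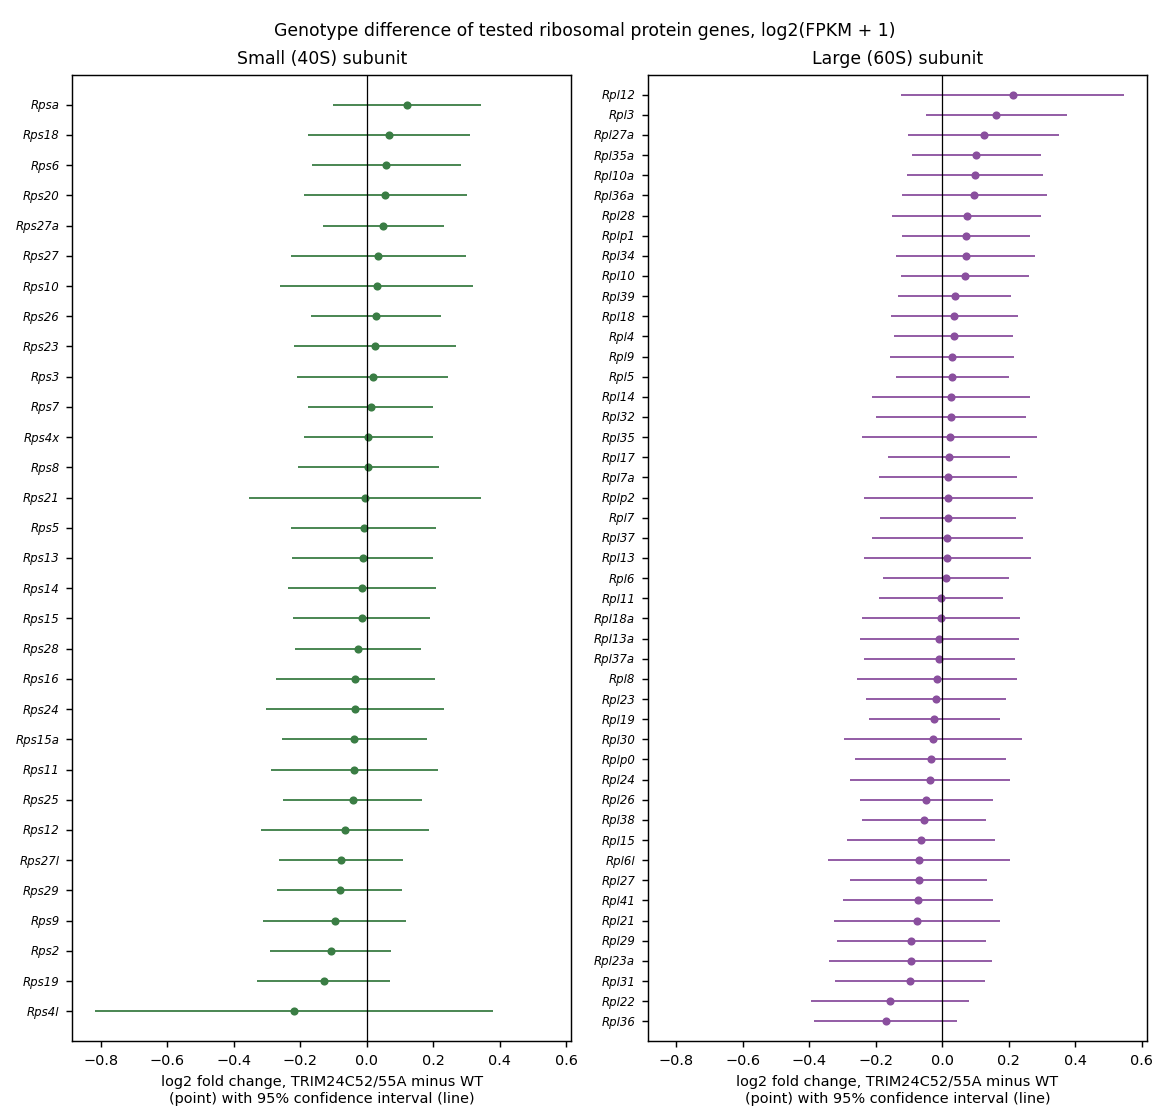
Log2 fold change on the log2(FPKM + 1) scale, TRIM24C52/55A minus WT, of 78 of the 79 tested ribosomal protein genes, with 95% confidence intervals from limma (3 mice per group). Every interval shown includes 0, and the estimates lie on both sides of it, from -0.22 to 0.21.

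The P stalk genes had their groups on top of each other. *Rplp0* had 230.5, 231 and 230 FPKM in WT and 213, 261 and 205 FPKM in TRIM24C52/55A, a log2 fold change of -0.04 ± 0.10 (SE). The 3 WT values lay close together, whereas TRIM24C52/55A replicate 2 lay above all of them and the other two below. *Rplp2* had 102, 113 and 108 FPKM in WT and 102, 129 and 98.2 FPKM in TRIM24C52/55A. It again had its highest value in TRIM24C52/55A replicate 2 and its lowest in TRIM24C52/55A replicate 3.

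*Rps6*, the substrate of the S6 kinases downstream of insulin and mTORC1, had 263, 279 and 276 FPKM in WT and 267, 327 and 263 FPKM in TRIM24C52/55A (log2 fold change 0.06 ± 0.10, Benjamini-Hochberg adjusted p = 0.768, limma). TRIM24C52/55A replicate 2 was alone above the WT range. *Rps27a*, which encodes ubiquitin fused to a small subunit protein, had 143.5, 143.5 and 147 FPKM in WT and 146, 164 and 141 FPKM in TRIM24C52/55A. *Rpsa*, the small subunit protein also known as the laminin receptor, had 130, 140 and 136 FPKM in WT and 143, 168 and 133 FPKM in TRIM24C52/55A. Its log2 fold change of 0.12 ± 0.10 was the highest of the small subunit, the groups overlapped, and without TRIM24C52/55A replicate 2 it was 0.03.

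*Rpl5* and *Rpl11*, which together with an rRNA bind MDM2 when ribosome assembly fails, had log2 fold changes of 0.03 and -0.0037. *Rpl5* was at 166 ± 3.58 FPKM in WT and 169 ± 10.3 FPKM in TRIM24C52/55A. *Rpl11* was at 194 ± 12.1 and 193 ± 11.2 FPKM. Of the genes mutated in Diamond-Blackfan anaemia, *Rps19* had 91.3, 84.7 and 80.2 FPKM in WT and 71.1, 82.2 and 80.8 FPKM in TRIM24C52/55A, with a log2 fold change of -0.13 ± 0.09 and overlapping groups. *Rps26* was at 263 ± 13.4 and 268.5 ± 21.3 FPKM. *Rpl13a*, *Rps18* and *Rpl19*, which are often used as reference genes in quantitative PCR, had log2 fold changes of -0.01, 0.07 and -0.03 on the FPKM scale, and *Rpl39*, a protein of the exit tunnel, 0.04.

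Few genes had groups that did not overlap. All 3 TRIM24C52/55A values lay above all 3 WT values, or all below, for 2 of the 79 genes, where 28.9% of all genes tested did so. *Rpl3*, a protein of the large subunit that reaches the peptidyl transferase centre, had 146, 156 and 152.5 FPKM in WT and 160, 192 and 158 FPKM in TRIM24C52/55A. Its log2 fold change was 0.16 ± 0.09 (limma, Benjamini-Hochberg adjusted p = 0.341), and an exact two-sided permutation test gave p = 0.1, the smallest that 3 against 3 mice allow. The gap between the groups was small, from 156 to 158 FPKM, and without TRIM24C52/55A replicate 2 the log2 fold change was 0.07.

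The other estimates farthest from 0 also had overlapping groups. *Rpl12* had 57.0, 62.7 and 58.5 FPKM in WT and 64.1, 88.4 and 57.7 FPKM in TRIM24C52/55A, where replicate 2 stood far above the other 5 mice. Without that mouse its log2 fold change was 0.03 in place of 0.21. *Rpl36* had 213, 225 and 236 FPKM in WT and 203, 219 and 178 FPKM in TRIM24C52/55A (log2 fold change -0.17 ± 0.09), and *Rpl22* had 123, 118 and 144.5 FPKM and 105, 126 and 113.5 FPKM (-0.16 ± 0.10). *Rpl27a* and *Rpl35a* had log2 fold changes of 0.12 and 0.10, and of 0.03 each without TRIM24C52/55A replicate 2. For both, TRIM24C52/55A replicate 2 was the highest of the 6 mice.

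The libraries differed more than the genotypes did. TRIM24C52/55A replicate 2 had the highest value of the 6 libraries for 65 of the 79 genes and TRIM24C52/55A replicate 3 the lowest for 56. The summed level was 14514, 14856 and 15308 FPKM in WT and 14381, 16634 and 13629 FPKM in TRIM24C52/55A. Both extremes thus belonged to TRIM24C52/55A mice, and the WT mice lay between them. The group means were 14893 ± 399 and 14881 ± 1564 FPKM (SD, n = 3), a ratio of 0.999. Without TRIM24C52/55A replicate 2 the ratio was 0.940, and the median log2 fold change over the 79 genes was -0.09, with 9 positive, beside -0.10 over all genes in that fit.

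**Figure D3:**
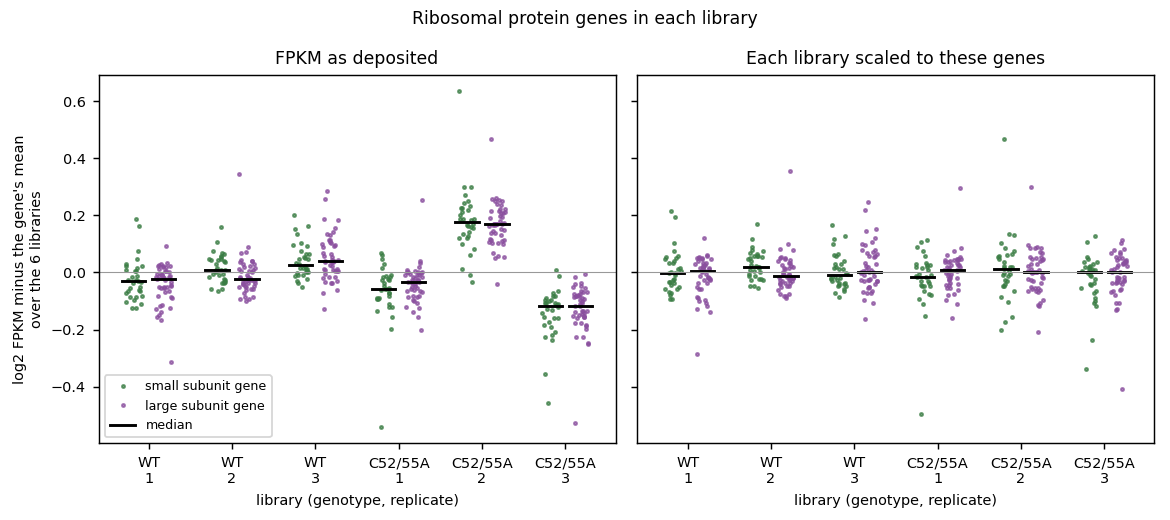
Log2 FPKM of each tested ribosomal protein gene minus its mean over the 6 libraries, by library and subunit (32 small, 47 large), as deposited (left) and after each library was scaled to these same genes (right); black bars are medians. As deposited, the medians run from -0.12 in TRIM24C52/55A replicate 3 to 0.17 in TRIM24C52/55A replicate 2, for both subunits alike, and after the scaling the points of every library lie around 0.

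Among the TRIM24C52/55A libraries the ribosomal protein genes moved largely together, while the WT libraries differed little. The median SD of a gene over the 3 mice of a group was 0.053 in WT and 0.156 in TRIM24C52/55A on the log2 scale. Among 694 other genes of like level (69.8 to 321 FPKM) it was 0.087 and 0.112. Scaling each library to the ribosomal protein genes takes out, by construction, any shift that they share. After it, the median SD was 0.049 in WT and 0.050 in TRIM24C52/55A. The spread of single genes around the set was thus alike in both groups, while the set as a whole ranged more widely among the TRIM24C52/55A mice. No test of this difference in spread was made.

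Other features moved with TRIM24C52/55A replicate 2 and were measured beside it. Of 10 adipocyte markers, 8 were highest in that library. *Adipoq* was at 4.55, *Lep* at 3.98, *Plin1* at 3.32 and *Retn* at 1.59 FPKM there, against at most 0.127 FPKM of any of these in the other 5 libraries, where *Lep* and *Retn* were not listed. The summed level of the adipocyte list, which the liver also expresses in part, was lowest there (1551 FPKM, against up to 2312 FPKM in WT and 2180 FPKM in the other TRIM24C52/55A livers), but *Car3* carried that sum. Without *Car3* the other 9 genes summed to 115 FPKM there, against 52.5 to 58.8 FPKM in WT and 38.1 and 44.7 FPKM in the other TRIM24C52/55A livers. Of 8 stellate cell markers, 4 were highest in that library. Of 12 lymphocyte markers, 3 were highest there, and the summed level of that list was 6.34 to 6.99 FPKM in WT and 5.46 to 5.93 FPKM in TRIM24C52/55A. The hepatocyte markers, 7 of 8 as *Alb* was not listed, summed to 16563 to 17027 FPKM in WT. In TRIM24C52/55A they summed to 16744 to 19470 FPKM, highest in the same library, where 3 of the 7 were highest. *Apoa1* carried most of that height, at 8183 FPKM there against 5556 to 6552 FPKM in the other 5 libraries. *Apob* was lowest there, at 723 FPKM. Macrophage and Kupffer cell markers summed to 222 to 275 FPKM in WT, to 272 FPKM in TRIM24C52/55A replicate 2 and to 185 FPKM in each of the other TRIM24C52/55A libraries, and endothelial markers to 110 to 122, to 115, and to 94.3 and 98.1 FPKM. Cholangiocyte markers summed to 28.5 to 53.8 FPKM in WT and 21.8 to 34.0 FPKM in TRIM24C52/55A. Erythroid markers summed to 1800 FPKM in WT replicate 1 and to 522 to 939 FPKM in the other 5 libraries. The part of these cells in the levels of the ribosomal protein genes was not tested.

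Of the 79 genes, only *Rps4l* changed its call when that library was left out. It had 14.8, 12.8 and 14.9 FPKM in WT and 8.92, 20.1 and 9.44 FPKM in TRIM24C52/55A, so 2 of the 3 TRIM24C52/55A mice lay below every WT mouse and the other above. With all mice its log2 fold change was -0.22 ± 0.26 (adjusted p = 0.674, limma with Benjamini-Hochberg adjustment). Without TRIM24C52/55A replicate 2 it was -0.57 ± 0.10 (adjusted p = 0.018), and *Rps4l* was then the 1 gene of the 79 called, where 10.4% of all genes were. The annotated pseudogene, chr6:148354656-148355598 on the plus strand, covers a small portion of the interval that the files give it.

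The direction of the whole set depended on how the libraries were scaled. FPKM are relative to all mapped fragments, and the major urinary protein (Mup) genes, which encode pheromone carriers secreted by the liver, took 5.04 to 8.24% of the summed FPKM in WT and 17.5 to 19.0% in TRIM24C52/55A. Of 20 Mup genes tested, 18 were called higher in TRIM24C52/55A. The ribosomal protein genes made up 2.25, 2.29 and 2.37% of the total in WT and 2.14, 2.46 and 2.01% in TRIM24C52/55A. Of the total without the Mup genes they made up 2.44, 2.50 and 2.50% in WT and 2.64, 2.98 and 2.44% in TRIM24C52/55A. The groups overlapped on both scales, and the ratio of the means was 0.956 on the first and 1.08 on the second.

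With TPM, which gives every library the same total, 12 of the 79 log2 fold changes were positive and the median was -0.07. With the Mup genes left out of the total, 73 were positive and the median was 0.11. Median-of-ratios scaling, which sets libraries by the typical gene, gave 72 positive and a median of 0.10, and quantile normalization gave 75 and 0.15. No ribosomal protein gene was called in any of these 4 scalings, with 0 of 79 past the adjusted threshold in each (limma), where 12.7% of all genes were called with TPM, 5.15% with the Mup genes left out, 5.40% with median-of-ratios scaling and 5.19% with quantile normalization. At an unadjusted p-value under 0.05 2 of the 79 were lower with TPM, where 25.5% of all genes were. Those higher numbered 8 with the Mup genes left out (9.41% of all genes), 8 with median-of-ratios scaling (8.49%) and 17 with quantile normalization (8.88%). The smallest adjusted p-value was 0.122 without Mup (*Rpl3*), 0.101 with median-of-ratios scaling (*Rpl3*) and 0.078 with quantile normalization (*Rpl35a*). The set was negative on TPM and positive on the other 3, and no scaling put a single gene past the threshold with all 6 libraries. The size of the shift leaned on TRIM24C52/55A replicate 2. Without it the median was -0.15 with TPM and 0.03 with the Mup genes left out. It was then 0.04 with median-of-ratios scaling and 0.08 with quantile normalization.

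**Figure D4:**
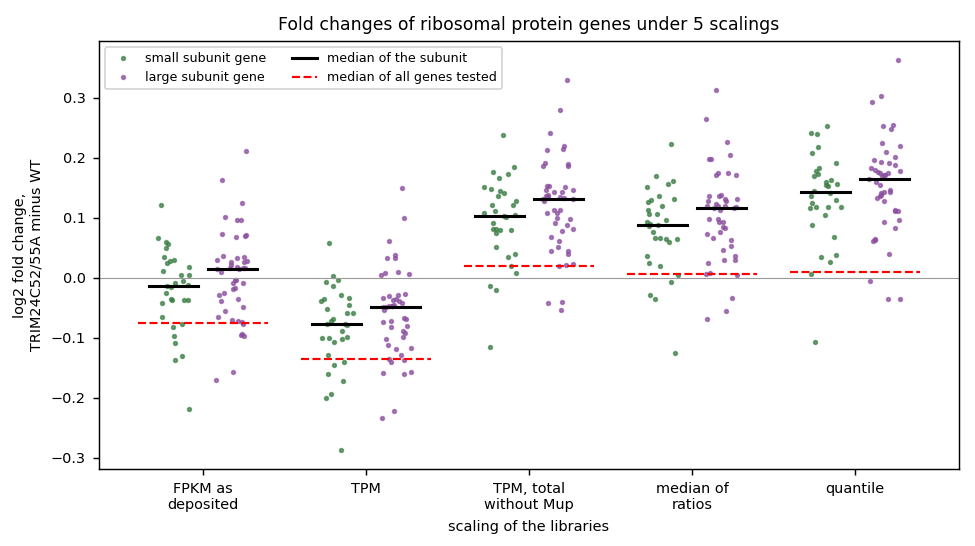
Log2 fold change (TRIM24C52/55A minus WT, log2 of the value + 1) of the 79 tested ribosomal protein genes under 5 scalings, by subunit, with the median of each subunit (black) and of all 12225 genes tested (red, dashed). The ribosomal protein genes lie around 0 on FPKM, below 0 on TPM and above 0 on the other 3, and in each the subunit medians lie above the dashed line and the large subunit median lies above the small.

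Set beside all genes, the place of the ribosomal protein genes moved with the scaling and with single mice. Their median log2 fold change was above that of all genes by 0.07 on FPKM, 0.07 on TPM, 0.09 with the Mup genes left out, 0.09 with median-of-ratios scaling and 0.14 with quantile normalization. Without TRIM24C52/55A replicate 2 the distance on FPKM was 0.01, and without TRIM24C52/55A replicate 3 it was 0.13. On the other scalings without TRIM24C52/55A replicate 2 it was 0.01 with TPM and 0.03 with the Mup genes left out. It was 0.03 with median-of-ratios scaling and 0.08 with quantile normalization. Fully separated groups followed the same shift. On TPM, 4 genes, among them *Rpl36*, *Rps19* and *Rps2*, had all TRIM24C52/55A values below all WT values and 0 had them above, where 30.3% and 4.40% of all genes did so. With the Mup genes left out of the total, 20 genes were wholly above and 0 below, where 13.7% and 12.9% of all genes were. The 20 included *Rpl3*, *Rpl10*, *Rpl35a*, *Rplp1*, *Rps6* and *Rpsa*. With quantile normalization 29 were wholly above (12.5% of all genes).

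A scaling to the ribosomal protein genes themselves removes what they share and leaves how they differ among themselves. By construction it holds their median log2 fold change near 0 (-0.0071), while that of all genes was -0.077 there. After this scaling, 8 genes were wholly above in TRIM24C52/55A and 5 wholly below. Of all genes, 5.15% and 21.2% were, but these shares carry that offset and cannot be set against the counts. Those above were *Rpl3*, *Rpl7a*, *Rpl10a*, *Rpl27a*, *Rpl28*, *Rpl35a*, *Rpl36a* and *Rpsa*, and among those below were *Rpl15*, *Rpl36*, *Rps2* and *Rps9*, several of which are named here after their values were seen. None was called where 5.64% of all genes were (limma, 0 of 79, smallest adjusted p = 0.303, for *Rpl36*, with Benjamini-Hochberg adjustment).

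Small and large subunit genes were compared within each library, where no scaling by a single factor can enter. The summed FPKM of the small subunit over that of the large was 0.687, 0.700 and 0.687 in WT and 0.678, 0.682 and 0.677 in TRIM24C52/55A. All 3 TRIM24C52/55A mice lay below all 3 WT mice, by 1.80% in the mean (0.691 ± 0.0072 against 0.679 ± 0.0027, SD, n = 3). The separation rested in part on the most abundant small subunit gene. Without *Rps2* it was 0.623, 0.636 and 0.623 in WT and 0.620, 0.625 and 0.614 in TRIM24C52/55A, and the groups overlapped. *Rps2* was chosen for this after its values were seen.

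**Figure D5:**
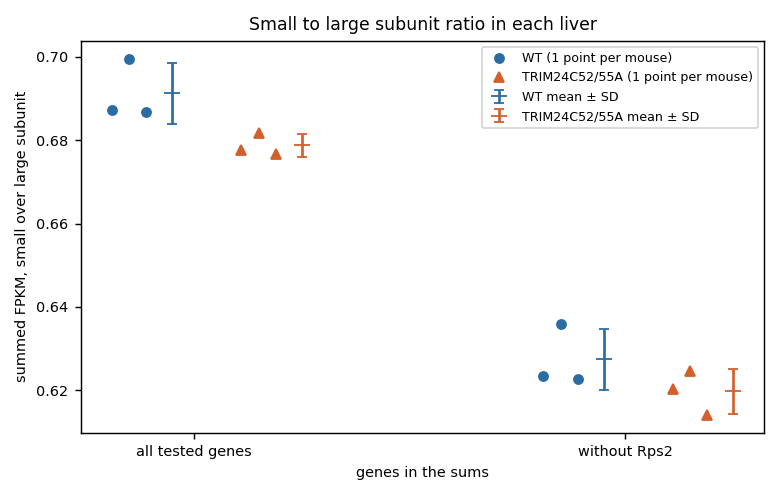
Summed FPKM of the small subunit genes over that of the large subunit genes in each liver (points), with mean ± SD (n = 3), over all 79 tested genes and without Rps2; the vertical axis does not start at 0. Over all genes the TRIM24C52/55A mice lie below the WT mice by 1.80% in the mean, and without Rps2 the groups overlap.

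The typical gene of each subunit gave no such separation. The median over genes of the centred log2 level, small minus large subunit, was -0.0087, 0.033 and -0.014 in WT and -0.023, 0.0089 and -0.00040 in TRIM24C52/55A, and the groups overlapped. The median log2 fold change was -0.013 over the 32 small subunit genes, with 13 positive, and 0.015 over the 47 of the large, with 25 positive. When WT replicate 2 was left out the order turned, to -0.0022 for the small and -0.016 for the large subunit.

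Genes that work with the ribosome were described from lists written from general knowledge. Of 7 tested ribosome genes that the naming rule misses, among them *Fau* and *Rack1*, 0 were called (limma), with a median log2 fold change of 0.02. *Rpl22l1*, a paralogue of *Rpl22*, had 19.4, 24.5 and 17.6 FPKM in WT and 23.1, 34.0 and 26.6 FPKM in TRIM24C52/55A, a log2 fold change of 0.42 ± 0.16 at an adjusted p = 0.155 (limma, Benjamini-Hochberg). Of 22 elongation factors and other TOP mRNAs, 28 initiation factors and 20 genes of mTORC1 and TOP regulation, 0 were called in each list, with median log2 fold changes of -0.07, -0.07 and -0.10. At an unadjusted p-value under 0.05 these lists held 2, 6 and 7 genes, where 23.6% of all genes passed. *Mtor*, the kinase that gives the pathway its name, was at 6.45 ± 0.497 FPKM in WT and 5.11 ± 0.329 FPKM in TRIM24C52/55A. Its groups did not overlap, at a log2 fold change of -0.28 ± 0.10 and an adjusted p = 0.118 (limma, Benjamini-Hochberg).

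Of 53 ribosome biogenesis genes, 1 was called, and it was lower, where 6.09% of all genes were lower. *Nop10*, a protein of the box H/ACA particles that modify rRNA, had 40.2, 41.7 and 40.2 FPKM in WT and 31.1, 34.6 and 31.4 FPKM in TRIM24C52/55A, and fell by 0.32 on the log2 scale (SE 0.08, adjusted p = 0.039, limma with Benjamini-Hochberg adjustment). With median-of-ratios scaling its adjusted p-value was 0.109 (limma, Benjamini-Hochberg). There 0 genes of the list were called, where 5.40% of all genes were. The count was also 0 when any mouse other than TRIM24C52/55A replicate 2 was left out, where 296 to 792 of 12225 genes were called. Without TRIM24C52/55A replicate 2, 3 were called lower, where 8.45% of all genes were. The list as a whole had a median log2 fold change of -0.01.

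The mitochondrial ribosomal proteins, made in the nucleus for the ribosome of the mitochondrion, had a lower median than the cytosolic ones. Of 78 tested, 3 were called lower and 0 higher (6.09% and 1.64% over all genes), 72 log2 fold changes were negative, and the median was -0.16. *Mrpl34* was at 47.9 ± 2.44 FPKM in WT and 37.02 ± 2.32 FPKM in TRIM24C52/55A, and fell by 0.36 on the log2 scale (adjusted p = 0.033, limma with Benjamini-Hochberg adjustment). *Mrps14* fell by 0.43 and *Mrpl41* by 0.32, with adjusted p-values of 0.035 and 0.039 in the same fit. With TPM 10 of the 78 were called lower, where 11.1% of all genes were. Without TRIM24C52/55A replicate 2 the count was 6, where 8.45% of all genes were lower. Without TRIM24C52/55A replicate 3 it was 1, where 597 of 12225 genes were lower. Without any 1 of the other 4 mice it was 0, where 202 to 348 of 12225 genes were lower, against 744 with all mice. With median-of-ratios scaling 0 of the 78 were called, where 5.40% of all genes were. The median was -0.06 there, still below the 0.0059 of all genes, while that of the cytosolic ribosomal protein genes was 0.10. The 15 mitochondrially encoded genes had a median of -0.13 on FPKM, with 0 called. No test of the difference between cytosolic and mitochondrial ribosomal protein genes was made.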

How the data were processed

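RNA from the liver of 3 WT and 3 TRIM24C52/55A mice was sequenced, with 1 library per mouse. For each mouse the authors deposited FPKM in a table of its own, and genes at 0 are not listed. The submitters' processing notes name bcl2fastq, Salmon 0.14.0, DESeq2 1.30.0 and GRCm38 without saying which step each served, and the tool behind the FPKM is not given in the sources used here. FPKM keep no total count, so no counting interval is given, but the commonest ratio between low values put the depth of the libraries at 0.956 to 1.02 times that of WT replicate 1. Summed FPKM were 644619 to 676791 per library. Trim24 was between 4.31 and 8.46 FPKM, and as the knockin changes codons only, its level does not check the labels.

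Libraries were grouped by their labels. Values were tested as log2(FPKM + 1), a scale that understates the change of low genes, in the 12225 genes whose mean reached 0.5 FPKM. The fit was made in R 4.3.3 by limma 3.58.1, with genotype as the only term, moderation of the variances along their trend with the mean, and Benjamini-Hochberg adjustment over all genes at a threshold of 0.05. The study names a t-type test for its 2-group comparisons but none for the sequencing. Single genes had an exact two-sided permutation test on FPKM. Lists were described by counts and medians. The script was tested on simulated data. Summaries and plots were made with pandas 2.3.3, numpy 2.4.6 and matplotlib 3.10.9 under Python 3.11.15.

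Genes were named by role, by the 5 largest rises and falls in fold change, by the 5 highest and 5 lowest levels, and as members below the filter. Some genes are not reported here by name. From each other list, at most 4 genes of smallest p could be named. The members and lists were chosen with earlier results of these data known. Alternatives were a pseudocount of 0.1, a minimum mean of 1 FPKM or none, TPM, TPM without the Mup genes in the total, quantile and median-of-ratios scaling, limma without trend or with robust moderation, a replicate block and each replicate left out. Scaling to the ribosomal protein genes, and other scalings without TRIM24C52/55A replicate 2, were chosen after seeing the data.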

Additional observations from a re-analysis of the deposited data

How the results depend on the processing

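Over 27 alternatives the count of ribosomal protein genes called was 0 in 21 and 1 in 6 (limma), and in each of the 6 TRIM24C52/55A replicate 2 was left out and Rps4l was the gene called lower. Leaving out each replicate in turn gave 0 to 1 genes, median log2 fold changes of -0.089 to 0.057, and a ratio of the summed levels of 0.940 to 1.04. The median of -0.0042 became 0.154, and the ratio of the summed levels 1.11, with quantile normalization. The count over all genes, 944 (200 higher, 744 lower), became 347 with no filter. There Rpl3l was the only 1 of 81 ribosomal protein genes at an unadjusted p under 0.05 (limma), where 16.0% of all genes were. Rpl3l reached at most 0.123 FPKM in any library. The count over all genes became 1555 (197 higher, 1358 lower) with TPM, 629 (262 higher, 367 lower) with the Mup genes left out of the total, 660 (249 higher, 411 lower) with median-of-ratios scaling and 634 (255 higher, 379 lower) with quantile normalization. It was 296 to 1272 with each replicate left out. Of the 28 initiation factors and the 20 mTORC1 genes, 3 and 2 were called lower with TPM, where 11.1% of all genes were. Without TRIM24C52/55A replicate 2 it was 1 of each list, where 8.45% of all genes were lower. The causes of these moves were not tested.

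Deviations of same-numbered libraries from their group means correlated at -0.123 to 0.003 across genes, and those of differently numbered libraries at -0.051 to 0.142. With so few mice this cannot show whether the numbers pair them. With the replicate block 578 genes and 0 ribosomal protein genes were called. With 3 mice per group, differences smaller than the confidence intervals were not detectable.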
